A study of Mus musculus with 4 samples.

Results

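Hepcidin and the genes that move iron into and out of cells were followed in regenerating mouse liver after an siRNA against the acute phase gene Orm1. The group was defined by name as 10 genes, and a gene counted as measured when at least 1 probe set carried its symbol and no other. By that rule 9 of the 10 genes were measured, by 15 probe sets, among 10923 genes in all. Trf, the gene of the iron carrier transferrin, had only a probe set that it shares with Srprb in the platform annotation. The genes were gathered with values of these same arrays known, among them the low values of Hamp and Scara5 in siOrm livers, so the differences between siOrm and siControl are given below as a description and were not tested gene by gene.

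Hepcidin, the product of Hamp, is a small peptide hormone that hepatocytes secrete when iron is plentiful or when inflammation is present. It binds ferroportin, the iron exporter encoded by Slc40a1, and causes its degradation, so that iron stays inside macrophages, enterocytes and hepatocytes. Its transcription is driven by bone morphogenetic proteins (BMPs) from the liver endothelium, acting through SMAD proteins with help from the transferrin sensors HFE and TFR2, and by interleukin 6 acting through STAT3.

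The mice were male C57BL6/J animals aged 6 to 13 weeks. The siOrm group, with 2 arrays, received 1 injection of siRNA against Orm1 in Invivofectamine 3.0, a lipid reagent that carries RNA to the liver. The siControl group, also with 2 arrays, is labelled only as control, and its siRNA is not described. The series text places a 40% partial hepatectomy 3 days after the injection and the liver sampling 48 hours after the operation. The labels leave unsaid how many mice an array represents, and the array titles could also be read as naming siRNAs against different orosomucoid genes, while source names and descriptions put both siOrm arrays in 1 group.

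All values are log2 signals, with base 2 assumed, from which the authors had subtracted the median of the 4 arrays for each probe set. Because of that centring the 2 middle arrays of a probe set always carry equal values of opposite sign, and the level of a gene cannot be read or compared with that of another gene. The rounding of the stored numbers leaves 1 trace of the level. Logarithms of 8 or more kept in single precision differ by whole multiples of a coarse step, and smaller ones can differ by finer steps, so a finer step shows that at least 1 array lay below 8 if the values were kept in that form. A dim probe set can also land on the coarse step by chance. Of the 15 probe sets of the iron genes, 10 lay on the coarse step (66.7%), against 42.3% of all named probe sets. Of the hepatocyte markers 18 of 19 probe sets did so, and of the lymphocyte markers 1 of 11. The labelled tissue thus showed its own markers on the coarse step.

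The targeted gene differed little. Orm1 stood at -0.24 and -0.02 in siOrm livers, against 0.02 and 0.19 in siControl livers, a difference of -0.23 with a standard error of 0.15. Orm2 and Orm3, its close paralogs, differed by -1.08 and -0.91. At an adjusted p under 0.05 by limma, 0% of all genes were called (0 of 10923), while 520 (4.76%, 238 higher and 282 lower) had an unadjusted p under 0.05. Since the targeted gene checks the labels only loosely, siOrm below names the label. Gene by gene, the siOrm arrays differed from each other with a standard deviation of 0.249, and the siControl arrays with one of 0.384. The smallest value of any pair, 0.233, was between siControl replicate 1 and siOrm replicate 2, and the largest, 0.428, between siControl replicate 2 and siOrm replicate 1. By this measure the arrays did not group by label, which limits every difference given below.

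The promoter of Hamp carries the letters through which both inputs are known to act, a BMP-responsive element with the core GGCGCC and a STAT3 site of the form TTCNNNGAA. Mice also have Hamp2, a neighbouring duplicate of the gene whose product is not known to act as the iron hormone. Whether their promoter letters bear on the array values of the duplicates was not tested. The 250 bases before the annotated start of each gene are shown. They are RefSeq sequences of build GRCm38.p6, read 5′ to 3′ on the minus strand, with the matches to either motif in capitals. Hamp lies at chr7:30944030-30944279 and Hamp2 at chr7:30924182-30924431.
Hamp: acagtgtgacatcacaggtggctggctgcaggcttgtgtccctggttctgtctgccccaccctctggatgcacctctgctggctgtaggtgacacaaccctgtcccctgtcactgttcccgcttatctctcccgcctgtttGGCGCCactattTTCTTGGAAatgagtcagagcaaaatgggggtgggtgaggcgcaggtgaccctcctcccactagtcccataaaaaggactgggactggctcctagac
Hamp2: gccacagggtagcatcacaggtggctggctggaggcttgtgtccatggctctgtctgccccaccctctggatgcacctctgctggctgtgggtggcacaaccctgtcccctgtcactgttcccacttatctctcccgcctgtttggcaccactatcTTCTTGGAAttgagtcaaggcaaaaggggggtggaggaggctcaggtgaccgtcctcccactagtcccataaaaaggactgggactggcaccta
The windows were 91.9% identical over 247 aligned bases. In Hamp, GGCGCC lay from 109 to 104 bases before the start and TTCTTGGAA from 97 to 89 bases before it. Hamp2 held TTCTTGGAA, from 94 to 86 bases before its start, and no GGCGCC in this window. Both motifs read the same on either strand and do not overlap each other in Hamp. Among 32851 promoter windows of this length, 9.59% held GGCGCC, 7.02% held TTCNNNGAA and 0.368% held both. The promoter table listed 5 of the 10 iron genes, Hamp, Tfr2, Tfrc, Hfe and Bmp6, with 8 windows. GGCGCC was also found in 1 of the Tfrc windows, and TTCNNNGAA only in that of Hamp among these 8. A match of letters is a description and does not show that a factor binds there.

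Hamp was low in both siOrm livers. It stood at -0.59 and -0.45 in siOrm livers, against 1.03 and 0.45 in siControl livers, as the mean of its probe sets. The groups did not overlap, and the lowest siControl array lay 0.91 above the highest siOrm array. The difference of the means was -1.27 with a standard error of 0.22, a ratio of 0.416 of the siControl signal. It ranged from -1.55 to -0.98 over the other settings tried, and the smallest size came from leaving out siControl replicate 1, the array with the highest Hamp. The probe sets of Hamp gave nearly the same answer, with -1.25 for 1419196_at and -1.28 for 1419197_x_at, and both lay on the coarse step. Markers of hepatocytes, the cells that make hepcidin, averaged 0.04 and 0.03 in siOrm livers, against 0.04 and -0.07 in siControl livers. Of the 10 measured, 3 were separated upwards in siOrm livers and 0 downwards, where 17.0% of all genes were separated upwards and 15.3% downwards.

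Hamp2 did not follow that pattern. Its probe set 1436643_x_at stood at 0.52 and -0.52 in siOrm livers, against 0.52 and -0.57 in siControl livers. The other, 1456289_at, stood at 0.58 and -0.16 in siOrm livers, against 0.16 and -0.20 in siControl livers. Both were high in replicate 1 of either group and low in replicate 2, so the groups overlapped, with differences of 0.03 and 0.23. Probes of the duplicates can share sequence, which was not checked here because the probe letters were not used.

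**Figure D1:**
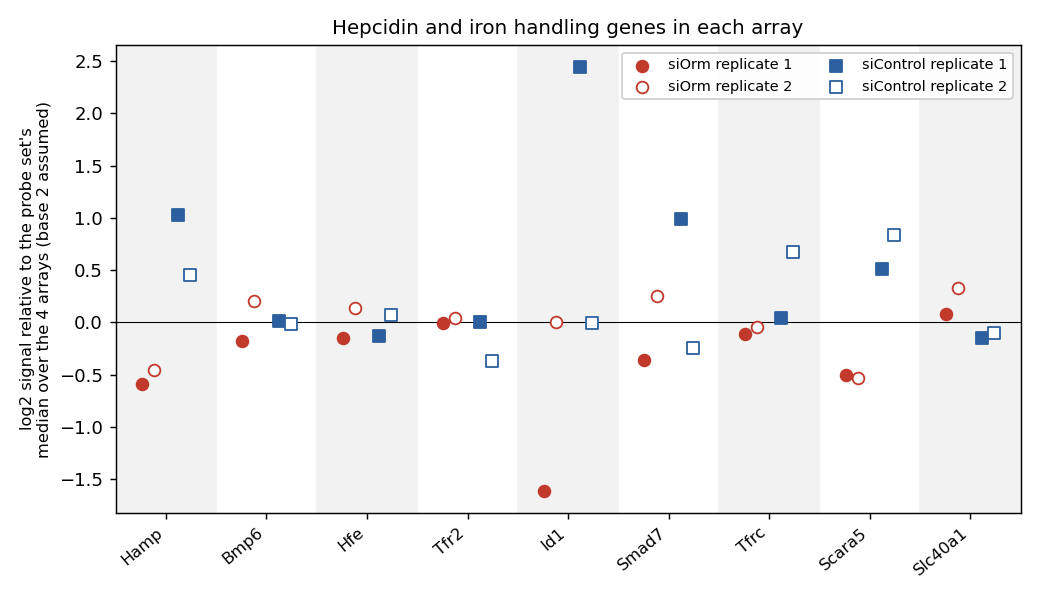
Log2 signal of each measured gene relative to its median over the 4 arrays, with siOrm arrays as red circles left of the siControl arrays as blue squares and replicate 2 of each group drawn open. Hamp and Scara5 show both siOrm arrays at -0.45 or below and both siControl arrays at 0.45 or above, while Id1 spreads from -1.62 to 2.45 within overlapping groups.

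As means of probe sets in the design used, the ligand and the sensors upstream of hepcidin did not separate the groups. Bmp6, the endothelial ligand that rises with iron stores, stood at -0.18 and 0.21 in siOrm livers, against 0.01 and -0.01 in siControl livers, with a difference of 0.01 (SE 0.17). Hfe, an MHC class I-like protein that binds the transferrin receptor, stood at -0.15 and 0.14 in siOrm livers, against -0.13 and 0.07 in siControl livers, with a difference of 0.02 (SE 0.16). For both genes the siOrm arrays lay on either side of the siControl arrays, and the sign of the difference depended on which array was included. The probe sets of Hfe differed by 0.10 and -0.05. By 1422645_at both siOrm arrays lay above, at 0.03 and 0.05 in siOrm livers, against -0.09 and -0.03 in siControl livers. By 1450702_at the groups overlapped.

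Tfr2, the hepatocyte transferrin receptor that senses loaded transferrin, stood at 0.00 and 0.04 in siOrm livers, against 0.00 and -0.37 in siControl livers. Its difference of 0.20 (SE 0.17) came from siControl replicate 2 and was 0.01 without that array. The other 3 arrays lay within 0.05 of each other. Its probe sets were close, at 0.22 and 0.18. With array medians subtracted or with quantile normalization both siOrm arrays of Tfr2 lay above both siControl arrays.

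Id1 had the widest spread of the measured iron genes. It encodes an inhibitor of basic helix-loop-helix factors and is a direct BMP target that follows Hamp when iron changes. It stood at -1.62 and 0.01 in siOrm livers, against 2.45 and -0.01 in siControl livers. The extremes were siOrm replicate 1 and siControl replicate 1, and the replicates numbered 2 were almost equal, so the groups only just overlapped. The difference of -2.03 had a standard error of 0.89, and it was -0.80 without siControl replicate 1, -1.22 without siOrm replicate 1 and -3.25 without siControl replicate 2. Smad7, an inhibitory SMAD that BMP signals induce as a brake, was ordered alike, at -0.36 and 0.25 in siOrm livers, against 0.99 and -0.25 in siControl livers. Its difference of -0.43 (SE 0.43) turned to 0.19 without siControl replicate 1, was -1.04 without siControl replicate 2, -0.12 without siOrm replicate 1 and -0.73 without siOrm replicate 2.

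Other BMP targets shared this order of arrays. Of the 6 measured, Id2, Id3, Atoh8 and Bambi were lowest in siOrm replicate 1 and highest in siControl replicate 1, as were Hamp, Smad7 and Id1, while 8.90% of all genes had that order. The order was noticed in these genes, so nothing is read from that share. Id3, a close relative of Id1, stood at -2.09 and -0.03 in siOrm livers, against 1.24 and 0.03 in siControl livers, a difference of -1.70 (SE 0.73). Id2 differed by -0.52 (SE 0.36), with -0.37 and 0.12 in siOrm livers, against 0.91 and -0.12 in siControl livers. Atoh8, a transcription factor that binds the Hamp promoter, differed by -0.31 (SE 0.35), and Bambi, a decoy receptor, by -0.10 (SE 0.30). Without siControl replicate 1 Id3 differed by -1.09, Id2 by -0.01, Atoh8 by 0.12 and Bambi by 0.20. Without siOrm replicate 1 Id3 differed by -0.66, Id2 by -0.28, Atoh8 by 0.03 and Bambi by 0.25. Smad6, the other inhibitory SMAD, and Id4 went the other way, at 0.25 (SE 0.21) and 0.19 (SE 0.13). Hamp departed from these targets in replicate 2, where it stood at -0.45 in the siOrm liver and 0.45 in the siControl liver. The median difference of the 6 targets was -0.21, against 0.01 over all genes. It turned to 0.12 without siControl replicate 1 and to 0.10 without siOrm replicate 1, while leaving out siOrm replicate 2 gave -0.55 and leaving out siControl replicate 2 gave -0.57. By the test over all genes, 0 of the 6 passed in either direction, as did 0 of all 10923 genes, so nothing is read from it.

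**Figure D2:**
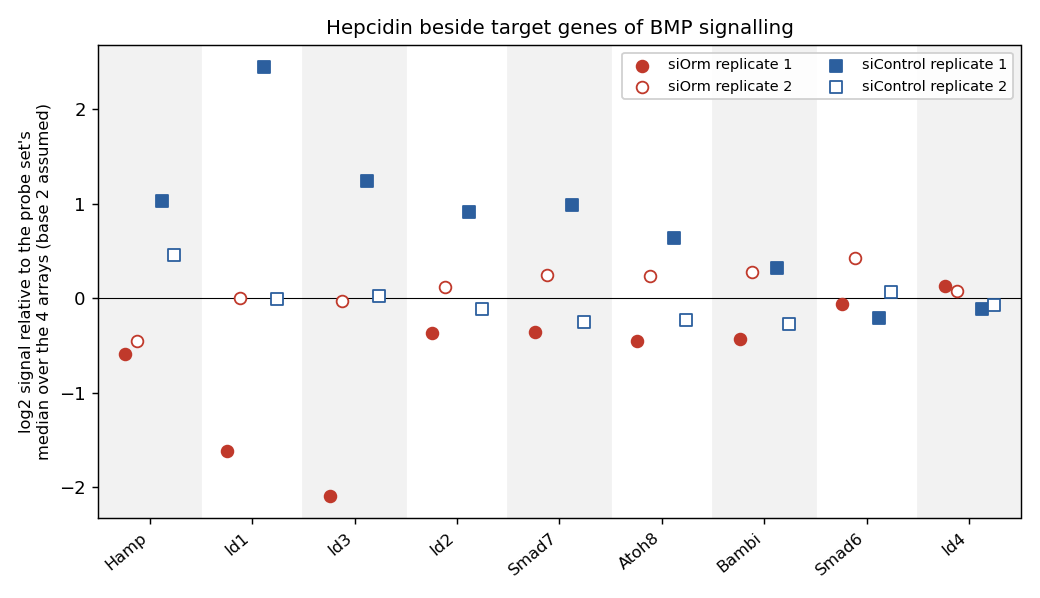
Log2 signal relative to the median of the 4 arrays for Hamp and 8 target genes of BMP signalling, with siOrm arrays as red circles left of siControl arrays as blue squares and replicate 2 drawn open. The genes from Hamp to Bambi are lowest in siOrm replicate 1 and highest in siControl replicate 1, and Smad6 and Id4 depart from it.

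Scara5 encodes a scavenger receptor that takes up ferritin, an iron source independent of transferrin. As the mean of its probe sets it stood at -0.51 and -0.53 in siOrm livers, against 0.51 and 0.84 in siControl livers, with a difference of -1.19 (SE 0.16). That mean joined probe sets that went apart. By 1451204_at the gene stood at -0.90 and -1.35 in siOrm livers, against 0.90 and 1.82 in siControl livers, a difference of -2.48 and a ratio of 0.179. By 1431336_at it stood at -0.12 and 0.29 in siOrm livers, against 0.12 and -0.14 in siControl livers, a difference of 0.10 with overlapping groups. Both probe sets showed the finer step, so at least 1 array of each lay below 8 on the log scale if values were kept in single precision. The standard error of the gene mean does not take in this disagreement between the probe sets, which was 2.58 log2 units.

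Scara5 is known from fibroblast-like cells, so markers of such cells were set beside it. The stellate cell and fibroblast list, with 19 measured genes, averaged -0.06 and 0.08 in siOrm livers, against -0.14 and 0.28 in siControl livers. Of these genes 1 was separated downwards in siOrm livers, against 15.3% of all genes, and 3 upwards, against 17.0%. Their differences ran from -0.48 to 0.32. Of 12 proliferation markers measured, 11 were separated downwards in siOrm livers, against 15.3% of all genes. The proliferation list averaged -0.46 and -0.24 in siOrm livers, against 0.23 and 0.77 in siControl livers. The part of either list in the Scara5 value was not tested.

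Tfrc encodes the main transferrin receptor, whose transcript is stabilised by iron regulatory proteins when cells are short of iron and which dividing cells express strongly. It stood at -0.11 and -0.04 in siOrm livers, against 0.04 and 0.67 in siControl livers, with a difference of -0.43 (SE 0.23). Without siControl replicate 2 the difference was -0.12, and without siControl replicate 1 it was -0.75. Its probe sets also went apart. By 1452661_at it stood at -0.18 and -0.08 in siOrm livers, against 0.08 and 1.19 in siControl livers, a difference of -0.77. By 1422966_a_at it stood at -0.05 and 0.00 in siOrm livers, against 0.00 and 0.15 in siControl livers, a difference of -0.10. The high value of 1452661_at fell in siControl replicate 2, the array that also had the highest mean of the proliferation markers (0.77) and of the macrophage markers (0.85). The same array was highest for endothelial (0.28), stellate cell and fibroblast (0.28) and neutrophil (0.49) markers. For hepatocyte, lymphocyte and erythroid markers it was the lowest. Erythroid markers, from cells rich in this receptor, averaged 0.27 and 0.01 in siOrm livers, against 0.00 and -0.23 in siControl livers. Of 9 measured erythroid markers, 3 were separated upwards, against 17.0% of all genes, and 0 downwards, against 15.3%. The part of these cells in the Tfrc value was not tested.

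The probe set shared by Trf and Srprb stood at -0.02 and 0.01 in siOrm livers, against -0.01 and 0.06 in siControl livers. It is on the coarse step, its difference was -0.03, and it cannot be given to either gene.

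**Figure D3:**
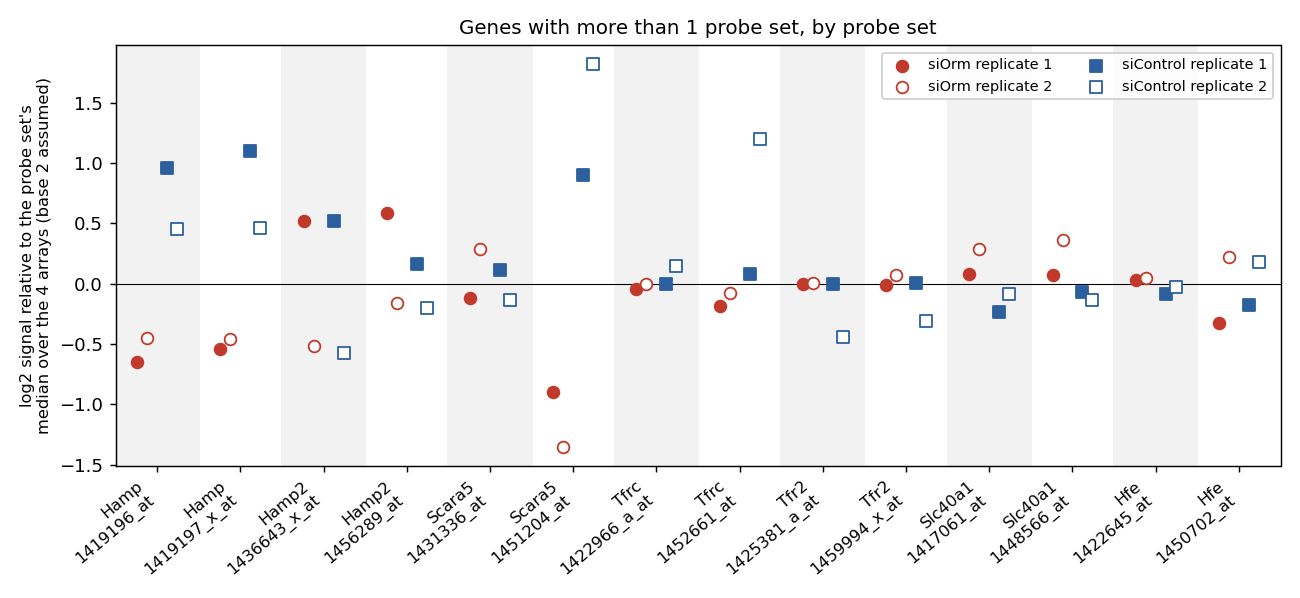
Log2 signal relative to the median of the 4 arrays for each probe set of Hamp, its duplicate Hamp2 and the 5 other iron genes with more than 1 probe set, with siOrm arrays as red circles left of siControl arrays as blue squares and replicate 2 drawn open. The differences of group means are close within the pairs of Hamp, Tfr2 and Slc40a1, while those of the Scara5 probe sets are -2.48 in 1 and 0.10 in the other.

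Slc40a1, the ferroportin gene, was the iron gene that lay high in the siOrm livers. It stood at 0.08 and 0.33 in siOrm livers, against -0.15 and -0.11 in siControl livers, so the groups did not overlap. The difference was 0.33 (SE 0.15), a ratio of 1.26, and it was 0.21 without siOrm replicate 2. The probe sets were close to each other, at 0.35 and 0.32, both without overlap and both on the coarse step. Macrophages recycle iron through ferroportin, and the 14 measured macrophage markers averaged -0.04 and -0.01 in siOrm livers, against -0.25 and 0.85 in siControl livers. The siControl arrays lay 1.10 apart in the macrophage markers. In Slc40a1 they lay 0.05 apart, as the mean of probe sets that ordered them in opposite ways. Replicates 1 and 2 of siControl stood at -0.24 and -0.08 by 1417061_at, and at -0.07 and -0.13 by 1448566_at. The part of macrophages in the Slc40a1 value was not tested.

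Of the 9 measured genes, 3 had siOrm values that all lay below the siControl values, where 15.3% of all genes did. These were Hamp, Scara5 and Tfrc. Slc40a1 alone had its siOrm values wholly above, as did 17.0% of all genes. Differences of -1 or lower were held by Hamp, Scara5 and Id1, and by 0.659% of all genes. Because the genes were gathered with this contrast in view, nothing is read from these shares. In a bulk sample, fewer cells of a type and less RNA per cell cannot be told apart.

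The pathway around the 10 genes was described through lists of its other parts. Since 0 of all 10923 genes passed the test, the 0 given for this and each later list says nothing about that list. Of 19 further BMP ligands, receptors, SMADs and cofactors, 0 passed the test over all genes in either direction. Their median difference was -0.01, which turned to 0.01 without siOrm replicate 1 and to 0.04 without siControl replicate 1. In 1 of the 19 both siOrm arrays lay below, against 15.3% of all genes, and in 2 above, against 17.0%. Smad1, a SMAD that carries the BMP signal, was the 1 gene with both siOrm arrays below, at -0.55 and -0.06 in siOrm livers, against 0.06 and 0.31 in siControl livers (difference -0.49, SE 0.21), or -0.24 without siOrm replicate 1. The related Smad5 and the shared partner Smad4 differed by -0.01 and 0.04. Neo1, which encodes neogenin, a partner of hemojuvelin, and Furin, a protease that cleaves hemojuvelin, were the 2 genes with both siOrm arrays above, at 0.27 (SE 0.16), or 0.10 without siControl replicate 1, and 0.13 (SE 0.13). Bmp2, the other endothelial ligand that drives hepcidin, stood at -0.51 and 0.20 in siOrm livers, against -0.20 and 0.32 in siControl livers, with a difference of -0.22 (SE 0.29). That difference turned to 0.14 without siOrm replicate 1 and to 0.04 without siControl replicate 2, and was -0.02 after quantile normalization. Endothelial markers averaged -0.03 and 0.01 in siOrm livers, against -0.18 and 0.28 in siControl livers. Hjv and Tmprss6, the hemojuvelin gene and the protease gene that restrains hepcidin, were not analysed here.

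A further list joined the interleukin 6 pathway with other inputs of hepcidin, among them hypoxia factors and liver transcription factors. Of its 15 measured genes, 0 passed in either direction, and the median difference was -0.07. In 4 both siOrm arrays lay below, against 15.3% of all genes, and in 1 above, against 17.0%. Jak1, a kinase of the interleukin 6 receptor, differed by -0.56 (SE 0.24), Cebpb, a transcription factor of the acute phase, by -0.36 (SE 0.17), Il1b by -0.30 (SE 0.16) and Il6st, which encodes the shared receptor chain gp130, by -0.22 (SE 0.16). Il6ra, the interleukin 6 binding chain, was the gene with both siOrm arrays above, at 0.34 (SE 0.18). Without siControl replicate 2 Jak1 differed by -0.23 and Il6ra by 0.11, and without siControl replicate 1 by -0.90 and 0.57. With the median of probe sets Jak1 differed by -0.29, and without probe sets with names ending in s_at, x_at or a_at Il6ra differed by 0.61. Stat3 itself overlapped, with -0.11 and 0.03 in siOrm livers, against 0.53 and -0.06 in siControl livers. Socs3, a feedback target of STAT3, stood at -0.04 and 0.05 in siOrm livers, against 0.04 and -1.32 in siControl livers, so its difference of 0.65 (SE 0.42) came from siControl replicate 2. Cebpa and Creb3l3, transcription factors that bind the Hamp promoter, differed by 0.09 (SE 0.19) and 0.06 (SE 0.14).

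Among 24 genes of iron and heme transport, 0 passed in either direction, and the median difference was -0.05. In 8 both siOrm arrays lay below, against 15.3% of all genes, and in 4 above, against 17.0%. Lcn2, the siderophore-binding lipocalin of the acute phase, stood at -0.50 and -0.26 in siOrm livers, against 0.26 and 1.26 in siControl livers (difference -1.14, SE 0.33), or -0.64 without siControl replicate 2. Neutrophils are rich in lipocalin, and the 9 measured neutrophil markers averaged -0.07 and -0.05 in siOrm livers, against 0.13 and 0.49 in siControl livers. Of these markers 3 were separated downwards, against 15.3% of all genes, and 1 upwards, against 17.0%. Their part in the Lcn2 value was not tested. Steap4, a ferric reductase, stood at -0.82 and -0.31 in siOrm livers, against 0.53 and 0.31 in siControl livers (difference -0.98, SE 0.21). Lcn2 and Steap4 had the lowest differences of the list. Both are also induced by inflammation, whose part in these values was not tested. Slc11a2, the importer DMT1, stood at -0.29 and -0.11 in siOrm livers, against 0.22 and 0.21 in siControl livers (difference -0.42, SE 0.14). Timd2, a ferritin receptor of the mouse, had both siOrm arrays above, at 0.40 (SE 0.15).

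Hp and Hpx, which encode the scavengers haptoglobin and hemopexin, differed by -0.10 (SE 0.13) and -0.07 (SE 0.13). Ceruloplasmin, the ferroxidase encoded by Cp, overlapped between the groups with a difference of -0.40 (SE 0.22), which was -0.65 without siControl replicate 1 and -0.15 without siControl replicate 2. The zinc and iron importer Slc39a14 and the endosomal reductase Steap3 each differed by -0.05 (SE 0.21 and 0.13). Without siControl replicate 1 they differed by 0.24 and -0.02, and without siControl replicate 2 by -0.34 and -0.08.

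Of 14 iron storage and sensing genes, 0 passed in either direction. Both siOrm arrays lay below in 4, against 15.3% of all genes, and above in 0, against 17.0%. The differences ran from -0.40 to 0.23 with a median of -0.02, or -0.06 without siOrm replicate 2. Fth1, the ferritin heavy chain gene, had values within 0.02 of 0 in all 4 arrays, with a difference of 0.00 (SE 0.12). The iron regulatory protein genes Aco1 and Ireb2 differed by 0.02 (SE 0.16) and 0.07 (SE 0.16). The 4 genes on the lower side were Bach1, a heme-sensing repressor (-0.40, SE 0.19), Hmox1, its target heme oxygenase 1 (-0.38, SE 0.17), Pcbp1, an iron chaperone (-0.32, SE 0.14), and Pcbp3 (-0.12, SE 0.13). Without siOrm replicate 1 Bach1 differed by -0.21, and without siControl replicate 2 Bach1 differed by -0.25 and Hmox1 by -0.20. Ftl1 shared its probe sets with a pseudogene and was not analysed here.

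The 13 measured iron-sulfur cluster genes had a median difference of 0.05, or 0.10 without siControl replicate 1, and 0 of them passed in either direction. The siOrm values of 5 genes lay wholly above the siControl values, against 17.0% of all genes, and those of 1 wholly below, against 15.3%. The outer mitochondrial membrane protein gene Cisd1 differed by 0.33 (SE 0.19), or 0.17 without either siOrm replicate 1 or siControl replicate 2, the chaperone gene Hspa9 by 0.16 (SE 0.13) and the transporter gene Abcb10 by 0.15 (SE 0.14).

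**Figure D4:**
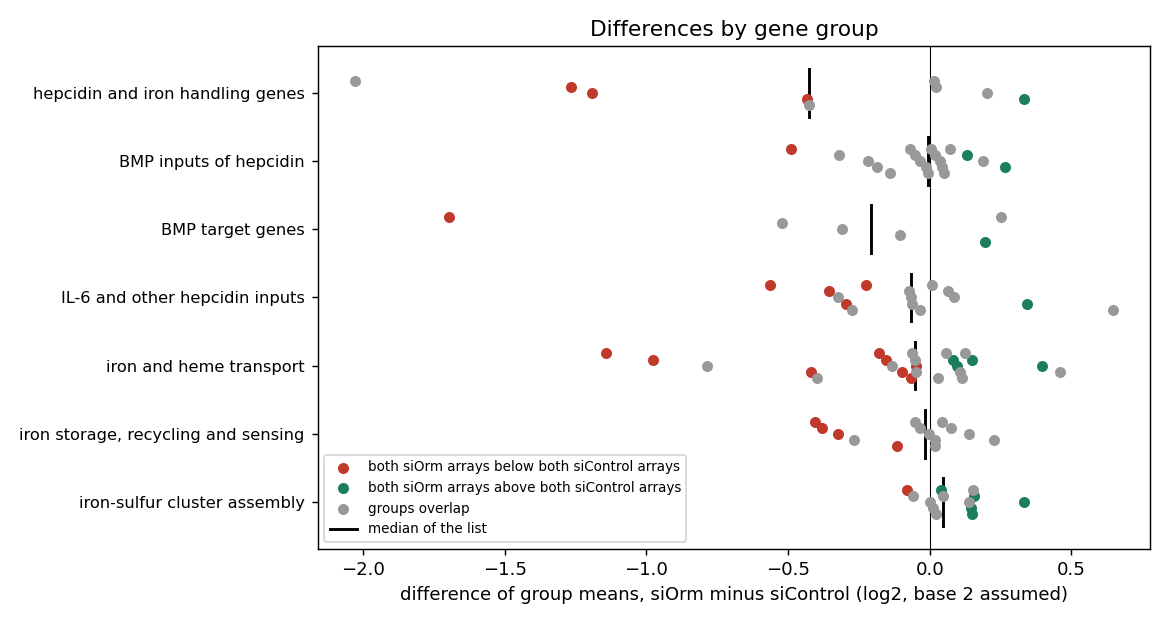
Differences of group means, siOrm minus siControl, on the log2 scale for the 9 measured iron genes and 6 lists of the surrounding pathway. Each point is a gene, coloured by whether the siOrm arrays lay below, above or among the siControl arrays, and black bars mark medians, which run from -0.21 to 0.05 in the 6 lists.

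The genes whose 4 values were nearest to those of Hamp, by Euclidean distance over the 4 arrays among all genes, were Bcl3, E2f8, Sdf2l1, Ccn2 and Tuft1, at distances from 0.403 to 0.508. Bcl3, an IκB family cofactor induced by inflammation, stood at -0.63 and -0.44 in siOrm livers, against 0.63 and 0.44 in siControl livers. Nearest to the mean of the Scara5 probe sets were Shcbp1, Cdc20, Fdps, Ccnb2 and Aacs, at distances from 0.204 to 0.291. That mean joins probe sets that went apart, so it is the pattern of neither. Cdc20, which activates the anaphase-promoting complex, stood at -0.69 and -0.45 in siOrm livers, against 0.45 and 0.87 in siControl livers. With 4 arrays and centred values such likeness is a description of these arrays. No iron gene was among the 5 nearest to Hamp or to Scara5.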

How the data were processed

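The authors deposited log2 signals (base 2 assumed) of 4 one-colour arrays, named in the series text as the Affymetrix Mouse Genome 430A 2.0 array. The median of each probe set over the arrays had been subtracted, as seen from the values (largest remaining median 4.8e-07). Not given in the sources used here: software, normalization and probe set filter. The labels' protocols name another maker's labelling and an extraction from cultured cells.

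Of 18852 probe sets, 17209 had 1 symbol in the platform annotation, 564 several, 1044 none, and 35 were controls. Genes were means of their probe sets. Tests were limma 3.58.1 in R 4.3.3 (constant variance prior, two-sided, Benjamini-Hochberg over 10923 genes), tested on simulated data. Standard errors are limma's moderated ones. Nothing says the replicates came from separate animals, so p-values cover the spread of these arrays, which may be technical, and the number of arrays limits the precision.

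The members and lists were chosen with earlier results of these data known. Named genes were the 10 members, the orosomucoids, fixed counterparts in each list, up to 3 further genes per list with the largest difference and no overlap, and the 5 nearest to Hamp and to Scara5. Hamp2 and the remaining BMP targets were added after their values were seen. Steps were matched within 0.15 of a step. Promoters came from RefSeq tables.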

Additional observations from a re-analysis of the deposited data

How the results depend on the processing

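With 2 arrays against 2, the count of genes past the test was 0 in the design used. It stayed 0 with array medians subtracted, with quantile normalization and with the median of probe sets. It also stayed 0 without probe sets with names ending in s_at, x_at or a_at, and with the replicate number as a block (0). It was 11 with a variance prior trended on the mean, none of them an iron or pathway gene. Leaving out 1 array gave 0 to 229 genes, the 229 (46 higher, 183 lower) coming without siControl replicate 1, where siControl replicate 2 stands alone and is assumed to vary like the other arrays. Of the pathway lists 0 to 4 genes then passed, the 4 being Flvcr2, Jak1, Lcn2 and Socs3. The number of iron genes whose siOrm values all lay below the siControl values was 3, with 3 to 7 when 1 array was left out, where fewer arrays overlap less often by construction. It was 4 with array medians subtracted or quantile normalization, by the addition of Id1, and Tfr2 then joined Slc40a1 on the higher side. Hamp, Scara5, Tfrc and Slc40a1 kept their side with array medians subtracted and with quantile normalization. Hamp and Tfrc also kept it without probe sets with names ending in s_at, x_at or a_at, which left Scara5 and Slc40a1 unchanged. The remaining settings could not change it. Leaving out an array cannot undo a full separation, and the block and the trended prior leave the values unchanged. The median of 2 probe sets is their mean. By single probe sets, 1431336_at of Scara5 and 1422966_a_at of Tfrc overlapped, and 1422645_at of Hfe lay higher without overlap. Without the probe sets so named Tfr2 and Id1 could not be measured, and whether those probe sets match other genes was not checked. The correlation of same-numbered deviations was 0.13, with only 1 such value possible, so replicates share a number and are not shown to be pairs. The median differences of the BMP targets and of the BMP inputs turned positive without siControl replicate 1 (0.12 and 0.04) and without siOrm replicate 1 (0.10 and 0.01); the cause was not tested.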
